A study of Mus musculus with 6 samples.

Results

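The genes of the smooth muscle contractile apparatus were examined in primary oviductal muscle cells of pregnant mice. The set held 10 genes of 21911 protein-coding genes, namely Acta2, Actg2, Myh11, Cnn1, Tagln, Smtn, Lmod1, Mylk, Cald1 and Des. They were chosen for their known roles, with earlier results of these data in view, and the choice used no measured value as a criterion. Regions of open chromatin were assigned to a gene when they overlapped its body or the 10 kb on either side, which gave 58 of 66678 regions.

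The series profiled these cells by ATAC-seq, in which the Tn5 transposase inserts adapters mainly into open chromatin, to compare accessibility between control and Pbrm1 cKO mice. Pbrm1 encodes a subunit of SWI/SNF, a complex that remodels chromatin with energy from ATP. There were 6 libraries, 3 labelled WT and 3 labelled Pbrm1 cKO, all from oviducts of mice aged 8 to 12 weeks on day 2 of pregnancy. The digested and filtered cells were held for some hours in serum-containing medium before the assay, in both genotypes. The study describes Pbrm1 cKO mice as Pbrm1 fl/fl mice carrying PR-IRES-cre, a Cre expressed where the progesterone receptor gene is active, and names the controls of the oviductal muscle cells Pbrm1 fl/fl. The labels name neither the driver nor whether animals were pooled, nor that the libraries came from separate animals. The study's supplement calls the replicates of these cells biological replicates, without saying which animals each came from. The p-values therefore measure the spread between these libraries. The peak lists do not show the deletion and offer no check of the genotype labels.

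The smooth muscle cell contracts when actin filaments slide along myosin filaments. Acta2 and Actg2 encode the smooth muscle actins, and Myh11 encodes the smooth muscle myosin heavy chain. Mylk encodes the kinase that phosphorylates the myosin light chain and so starts contraction. Cald1 and Cnn1 encode caldesmon and calponin, actin-binding proteins that restrain the myosin ATPase. Tagln and Smtn encode transgelin and smoothelin, which bind actin filaments, Lmod1 encodes leiomodin, a nucleator of actin filaments, and Des encodes the intermediate filament protein desmin. Many of these genes are classic targets of serum response factor (SRF) and its partner myocardin, which act through the CArG box, a pair of C and a pair of G around 6 positions of A or T.

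CArG boxes were present at 7 of the 10 genes when boxes with at most 1 G or C in the core were counted. The regions owned by the genes numbered 52 after the 6 regions that lay at promoters of neighbouring genes were set aside. They held 10 exact boxes in 9 regions of 6 genes and 7 boxes with 1 G or C in the core in 6 regions of 5 genes. The exact boxes are shown because they are the sequence feature by which these genes are best known. Each is given with 10 bases on either side, 5′ to 3′ on the strand of the gene, with the box in capitals.
Tagln, just downstream of the start of Tagln-201 in its transcribed part (chr9:45936028-45936057, minus strand): gtgtctttccCCAAATATGGagcctgtgtg
Tagln, upstream of the same start (chr9:45936151-45936180, minus strand): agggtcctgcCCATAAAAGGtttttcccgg
Tagln, downstream flank inside the neighbouring gene Pcsk7 (chr9:45920030-45920059, minus strand): agcaacatgcCCTAAAATGGtcaaagaaaa
Acta2, upstream of the start of Acta2-202 (chr19:34254278-34254307, minus strand): gtgtgttttaCCTAATTAGGaaatgctccc
Acta2, upstream flank (chr19:34265824-34265853, minus strand): agctgccttcCCTTATAAGGttaaggttct
Smtn, intron (chr11:3535821-3535850, minus strand): tggggcccggCCTTATATGGgaaagctgtg
Lmod1, intron (chr1:135347927-135347956, plus strand): cctggtttctCCAAAAATGGggcttgcaac
Lmod1, intron (chr1:135359189-135359218, plus strand): tgctccttctCCTTTTAAGGcaaggtctga
Mylk, intron (chr16:34958756-34958785, plus strand): gcagttctgaCCTTTTATGGttgagtttct
Cald1, upstream of the start of Cald1-202 (chr6:34598239-34598268, plus strand): cttaggataaCCAAAAAAGGgcatggagcc

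The sequences and coordinates are those of the GRCm38 assembly, and genes are those of GENCODE M21. The Tagln boxes at the start lay at positions 11 and -112 relative to it. The Acta2 box before Acta2-202 lay at position -67 relative to that internal start. It was inside the gene body, downstream of the start of Acta2-201. The Smtn box overlapped an exon of Gm11946, a noncoding transcript on the opposite strand, and the Mylk region lay at the start of the antisense transcript E130310I04Rik. The boxes of the Acta2 promoter next to its start, 133 and 183 bases downstream of the annotated start of Acta2-201, each carried 1 G or C in the core:
Acta2, nearer box (chr19:34255438-34255467, minus strand): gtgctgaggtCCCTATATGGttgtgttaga
Acta2, farther box (chr19:34255388-34255417, minus strand): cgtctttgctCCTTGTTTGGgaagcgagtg

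The share of regions with a box was set against all regions of equal window length. In windows of 300 bases around the summit, an exact CArG box was found in 7 of the 52 regions of these genes (13.5%), against 1.7% of all 66678 regions. With 1 G or C allowed in the core, the shares were 23.1% and 9.75%. TGANTCA, a motif of the AP-1 factors, was in 32.7% of the member windows and in 36.6% of all windows. The MCAT motif of the TEAD factors, CATTCC on either strand, was in 30.8% and in 20.7%. These are matches of letters, counted on both strands, and they do not show that a factor was bound. Many of these genes are known for their CArG boxes, so the choice of genes itself favoured a higher share. The 7 regions with an exact box lay at Acta2, Tagln, Lmod1, Mylk and Cald1, and Tagln and Lmod1 each had more than 1. No exact box lay in the windows of the Myh11, Cnn1, Smtn or Des regions.

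The upstream Acta2 region is shown in full window because it held an exact CArG box 45 bases from its summit, together with matches to TGANTCA and MCAT. The window is chr19:34265738-34266037 on the minus strand, with the CArG box in capitals.
Acta2 upstream region: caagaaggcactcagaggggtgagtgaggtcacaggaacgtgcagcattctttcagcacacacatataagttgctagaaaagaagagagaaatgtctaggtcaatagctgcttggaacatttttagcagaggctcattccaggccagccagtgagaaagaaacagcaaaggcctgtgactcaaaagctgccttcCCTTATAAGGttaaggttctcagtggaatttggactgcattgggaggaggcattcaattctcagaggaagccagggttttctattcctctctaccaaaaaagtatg
The 300 bases before the start of Cald1-202 are shown because this was the best-ranked promoter among the 10 genes (chr6:34598200-34598499, plus strand). The exact box lay at position -251.
Cald1 promoter: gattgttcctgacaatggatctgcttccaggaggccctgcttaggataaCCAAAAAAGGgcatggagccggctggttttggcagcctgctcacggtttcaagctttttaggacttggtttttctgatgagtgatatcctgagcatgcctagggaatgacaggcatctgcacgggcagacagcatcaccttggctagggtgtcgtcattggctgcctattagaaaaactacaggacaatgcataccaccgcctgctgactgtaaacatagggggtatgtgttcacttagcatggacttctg

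The libraries were compared by rank. Within a library, a region took its place from the highest −log10 p among the peaks listed over it, so that rank 1 is the strongest region, and regions with no listed peak shared the mean of the lowest ranks of their library. The rank score is log2 of 66678 over the rank, and a difference of 1 means that the rank number halved. Ranks do not show a change that all regions of a library share, and accessibility in fewer cells cannot be told apart from lower accessibility in each cell. Each library list held 298563 to 300000 entries. WT library 3 stood apart, with a median fold enrichment of 3.61 per entry against 4.43 to 4.87 in the other 5 libraries.

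Among the 58 regions, 13 were at promoters (within 1 kb of the start of a protein-coding transcript of the gene), 26 in introns (in the gene body but over no exon of its protein-coding transcripts), 3 in exons, 10 in the flanks and 6 at promoters of the neighbours Dguok, Elof1, Selenom, Shisa4 and Agbl3. Cald1 had the most, with 14 regions, followed by Mylk with 10, Lmod1 with 8, Smtn with 6, Acta2 with 5, and Myh11 and Des with 4 each. Cnn1 and Tagln had 3 each, and Actg2 had 1, the Dguok promoter. Most regions had a listed peak in all 6 libraries (56 of 58). Their mean ranks ran from 1343 at the Dguok promoter to 60572 at a second Lmod1 promoter region.

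**Figure D1:**
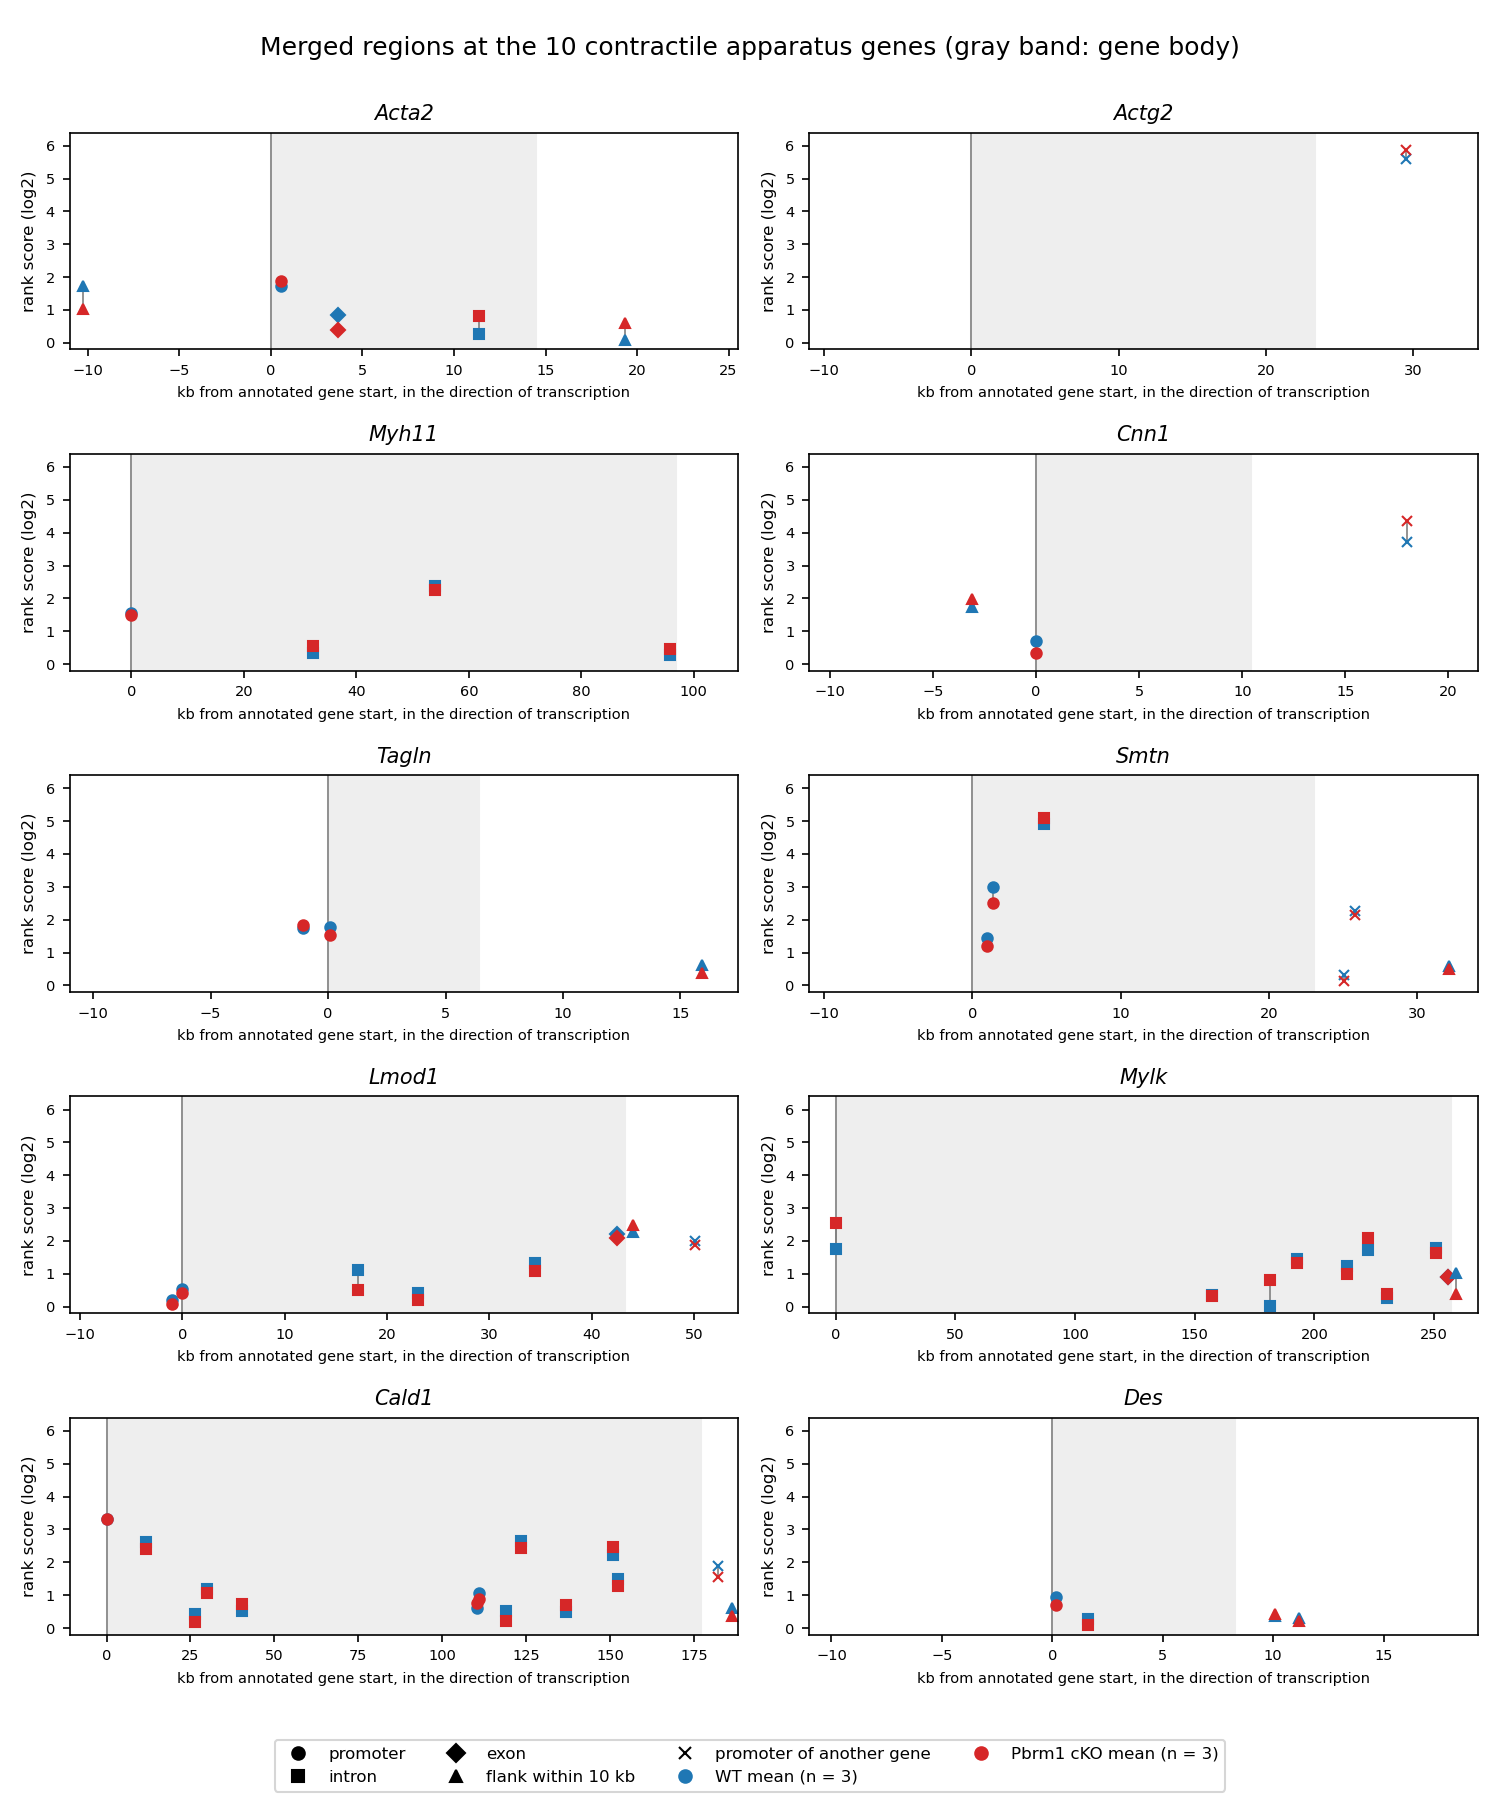
Merged regions at the 10 genes by distance from the annotated gene start (kb, in the direction of transcription) and rank score (log2, higher is stronger). Each marker is the mean of 3 libraries of a genotype, its shape gives the kind of region, and the gray band is the gene body. Smtn had its strongest own region in an intron, and Actg2 had only the promoter of a neighbour.

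Promoter accessibility differed widely among the 10 genes. The lead promoter of a gene was its promoter region with the best mean rank over the 6 libraries. Of the 10 genes 8 had one (80%), as did 61.3% of all protein-coding genes. Across all protein-coding genes the median mean rank of a lead promoter was 8014, and only Cald1 ranked better than that. The median over the 8 members was 21612.

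Cald1, for caldesmon, had the strongest lead promoter, at the start of Cald1-202, with a mean rank of 6921. The ranks were 4059, 7474 and 9625 in WT libraries 1 to 3 and 5708, 8259 and 6399 in Pbrm1 cKO libraries 1 to 3. The genotypes overlapped, and 45.3% of lead promoters genome-wide ranked as well or better. The number of sequence tags over the summit, recovered from the fold and p of the peak, was 39 to 99 per library. Cald1 also had weaker promoter regions farther into the gene. The region over the start of Cald1-203 had a mean rank of 35387, and the region just upstream of that start 41937.

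Smtn, for smoothelin, followed with a mean rank of 10105. Its ranks were 7669, 9470 and 7914 in the WT libraries and 9737, 11619 and 14221 in the Pbrm1 cKO libraries. All 3 Pbrm1 cKO libraries ranked below all 3 WT libraries, as they did at 10.9% of all regions. The difference in rank score was -0.50 (SE 0.35, 95% interval -1.22 to 0.23), which did not pass the limma test (adjusted p = 0.514 over all 66678 regions).

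Acta2 and Tagln, for smooth muscle alpha actin and transgelin, had lead promoters of about equal rank. The ranks at Acta2 were 19551, 16878 and 24948 in WT and 14049, 19139 and 21764 in Pbrm1 cKO libraries. At Tagln they were 15326, 20414 and 24501 in WT and 14153, 24704 and 19105 in Pbrm1 cKO libraries. The genotypes overlapped at both genes, and Acta2 was ahead of Tagln in 3 of 6 libraries. The Acta2 summit lay 305 to 345 bases downstream of the annotated start in every library. The lead promoter of Tagln was not the region over its start but one with its summit at positions -1047 to -1041. The region over the Tagln start, which holds both boxes shown above, had a mean rank of 21905, with ranks of 17242, 14722 and 29890 in WT and 23246, 23614 and 22716 in Pbrm1 cKO libraries.

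Myh11, for the smooth muscle myosin heavy chain, came next with ranks of 22795, 18920 and 27942 in WT and 21986, 22828 and 26674 in Pbrm1 cKO libraries. Des ranked at 32601, 40778 and 31034 in WT and at 46238, 37911 and 39992 in Pbrm1 cKO libraries. Both genotypes spanned overlapping ranks at both genes. Myh11 ranked better than Des in 6 of 6 libraries (rank score higher by 0.69 ± 0.36, SD over 6 libraries).

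Cnn1 and Lmod1, for calponin and leiomodin, had the weakest lead promoters. The Cnn1 ranks were 50386, 36540 and 36754 in WT and 47539, 52775 and 57388 in Pbrm1 cKO libraries, with only 15 to 25 tags over the summit. The Lmod1 ranks were 47320, 39069 and 51846 in WT and 56996, 56510 and 38907 in Pbrm1 cKO libraries, with 8 to 21 tags. The 95% interval of the rank score difference was -0.80 to 0.07 at Cnn1 and -0.56 to 0.30 at Lmod1. Across neighbours in this order, Smtn was ahead of Acta2 in 6 of 6 libraries (0.95 ± 0.45, SD), whereas Cald1 over Smtn and Des over Cnn1 held in 5, Tagln over Myh11 in 4 and Cnn1 over Lmod1 in 4.

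**Figure D2:**
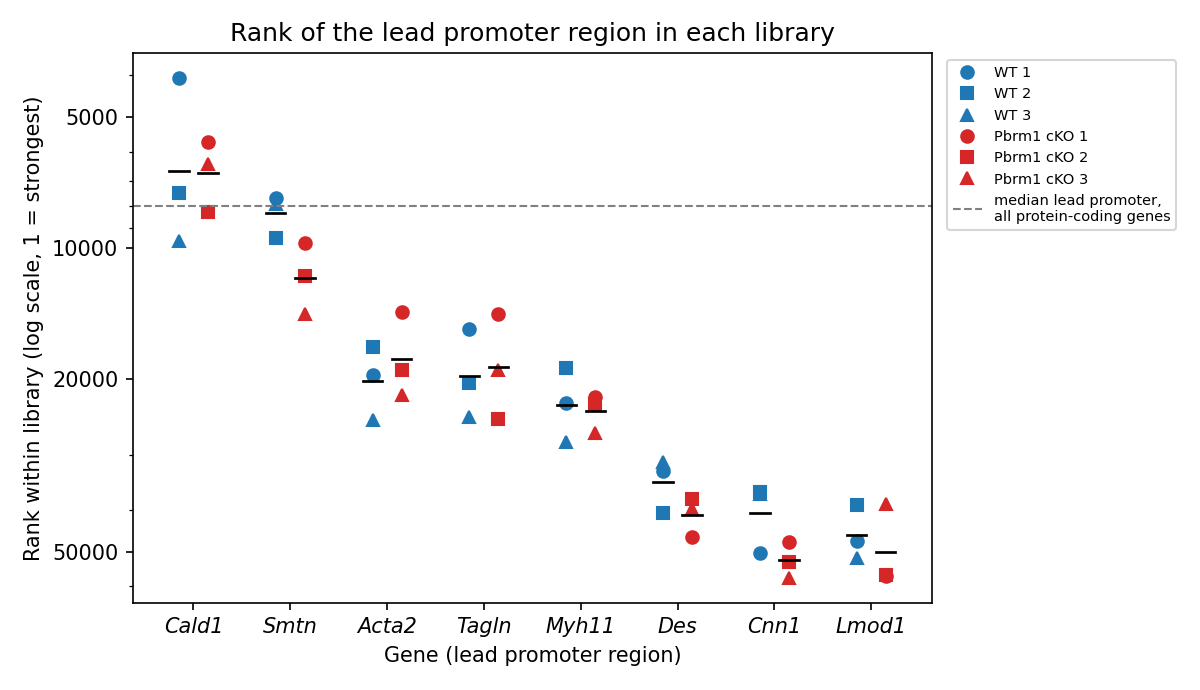
Rank of the lead promoter region (log axis, 1 is strongest) in each of the 3 WT (blue) and 3 Pbrm1 cKO (red) libraries for the 8 genes with a promoter region, with short black bars at the geometric mean of each genotype. The dashed line marks the median lead promoter of all protein-coding genes (8014). The genotypes overlap at every gene but Smtn, and over all regions 21.5% had no overlap in either direction.

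Actg2 and Mylk, for smooth muscle gamma actin and the myosin light chain kinase, had no promoter region in either reproducible list. A weak peak near an Actg2 start was listed in WT library 2 (7 tags) and Pbrm1 cKO library 3 (8 tags) alone. Weak peaks at the protein-coding starts of Mylk were listed in 4 of 6 libraries with 6 to 14 tags. An intronic Mylk region in both lists lay 1045 bases from the protein-coding start of Mylk-203, just past the 1 kb limit, with a mean rank of 20865. A limit of 3 kb would make it a promoter region. However, the start of Mylk-203 is internal, near the 3′ end of the gene. The midpoint of this region lay 251 kb from the gene start, in a gene of 257 kb. It is thus not near the start of Mylk-201, the longer protein-coding transcript. Absence of a listed peak means only that the promoter fell below the limit of that list, not that its chromatin was closed. The region of 743 bases at the 5′ edge of the Mylk gene (chr16:34745028-34745770), counted above among the intronic regions, lay over the start and first exon of the noncoding transcript Mylk-202, upstream of the protein-coding starts, and had a mean rank of 16786. It ranked at 14208, 21054 and 25986 in WT and at 19432, 14684 and 5353 in Pbrm1 cKO libraries, a difference of 0.78 (SE 0.43, adjusted p = 0.388, limma).

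Several genes had stronger regions outside the 1 kb promoter limit. At Myh11, Cnn1, Smtn and Lmod1, the best-ranked region outside promoters was ahead of the lead promoter in 6 of 6 libraries. The strongest was in a Smtn intron (chr11:3535393-3536148), with ranks of 1503, 2558 and 2872 in WT and 2617, 1545 and 1802 in Pbrm1 cKO libraries. It lay 1250 bases from the start of Smtn-204, overlapped the noncoding Gm11946 and held the Smtn box shown above, away from the summit and outside the 300-base window. The genotypes overlapped there (difference 0.20, SE 0.51, adjusted p = 0.892, limma).

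The Myh11 intron region (chr16:14236972-14237753), 53610 bases into the gene, ranked at 10716, 15870 and 12300 in WT and at 11998, 16035 and 14031 in Pbrm1 cKO libraries. Cnn1 had its best region upstream of the start (position -2848), with ranks of 12612, 22354 and 27892 in WT and 18054, 12782 and 20522 in Pbrm1 cKO libraries. For Lmod1 it was a region of 1117 bases just past the end of the gene, with ranks of 15493, 9732 and 17334 in WT and 10319, 11580 and 14436 in Pbrm1 cKO libraries. The genotypes overlapped at all 3 regions. At Myh11, Smtn and Lmod1 the best region was picked from several, which favours it over the promoter, whereas Cnn1 had a single own region outside its promoter. With a promoter limit of 3 kb, the Smtn and Cnn1 regions would themselves be promoter regions.

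At Acta2, Cald1, Tagln and Des the promoter was the stronger element in most libraries. The best other region of Acta2, the upstream region whose sequence is shown above, was ahead of the promoter in 1 of 6 libraries. It ranked at 17240, 18596 and 25874 in WT and at 28832, 26906 and 44999 in Pbrm1 cKO libraries. All Pbrm1 cKO libraries ranked below all WT libraries, as at 10.9% of all regions. The difference of -0.69 (SE 0.33) did not pass the test (adjusted p = 0.322, limma). This region was also the one nearest the edge of the 10 kb window, 9951 bases from the gene. The nearest region left out lay 10676 bases from Lmod1, with a mean rank of 2018 and a difference of -0.25.

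No region of the contractile apparatus genes passed the limma test for a change in rank in Pbrm1 cKO cells. Few of all regions did, so this does not set the genes apart. The number called depended on how ranks were scored, as the closing section gives. The count was 0 of 58 at an adjusted p of 0.05, where 0.0675% of all regions were called (45 of 66678, with 26 or 0.0390% ranked higher and 19 or 0.0285% ranked lower in Pbrm1 cKO). At an unadjusted p under 0.05 there were 5 of the 58 (3 higher, 2 lower), against 15.9% of all regions (7.51% higher, 8.37% lower). The genotypes did not overlap at 10 of the 58 regions, 5 in each direction, against 21.5% of all regions (10.6% higher, 10.9% lower). Of these, 3 of the 5 and 4 of the 10 were in the reproducible list of a single genotype, which favours the direction in which they differ.

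Mean rank scores were lower in Pbrm1 cKO at 38 of the 58 regions, against 50.0% of all regions, with a median difference of -0.12. At the 13 promoter regions, 10 were lower, against 55.1% of all promoter regions, and the median difference was -0.13, against -0.057 over all 17220 promoter regions. Leaving out WT library 2 gave a median of -0.04 for the 13 regions, whereas leaving out WT library 3 gave -0.19. The median over all promoter regions was not recomputed with these libraries left out, so it cannot be compared with either value. For the lead promoters not yet given, the limma difference (Pbrm1 cKO minus WT) was -0.02 (SE 0.40) at Cald1, 0.16 (SE 0.33) at Acta2, 0.07 (SE 0.34) at Tagln, -0.05 (SE 0.32) at Myh11, -0.25 (SE 0.27) at Des, -0.36 (SE 0.21) at Cnn1 and -0.13 (SE 0.21) at Lmod1. Their adjusted p-values ran from 0.409 at Cnn1 to 0.991 at Cald1. The 95% intervals were -0.53 to 0.86 at Acta2 and -0.72 to 0.62 at Myh11, so differences within these bounds could not be told from none. The direction at Cald1, Acta2, Tagln and Myh11 turned when single libraries were left out. Without WT library 3 the differences were -0.28 at Cald1, 0.012 at Acta2, -0.09 at Tagln, -0.19 at Myh11 and -0.22 at Lmod1. At Lmod1 the value was -0.015 without WT library 2 and -0.31 without Pbrm1 cKO library 3.

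**Figure D3:**
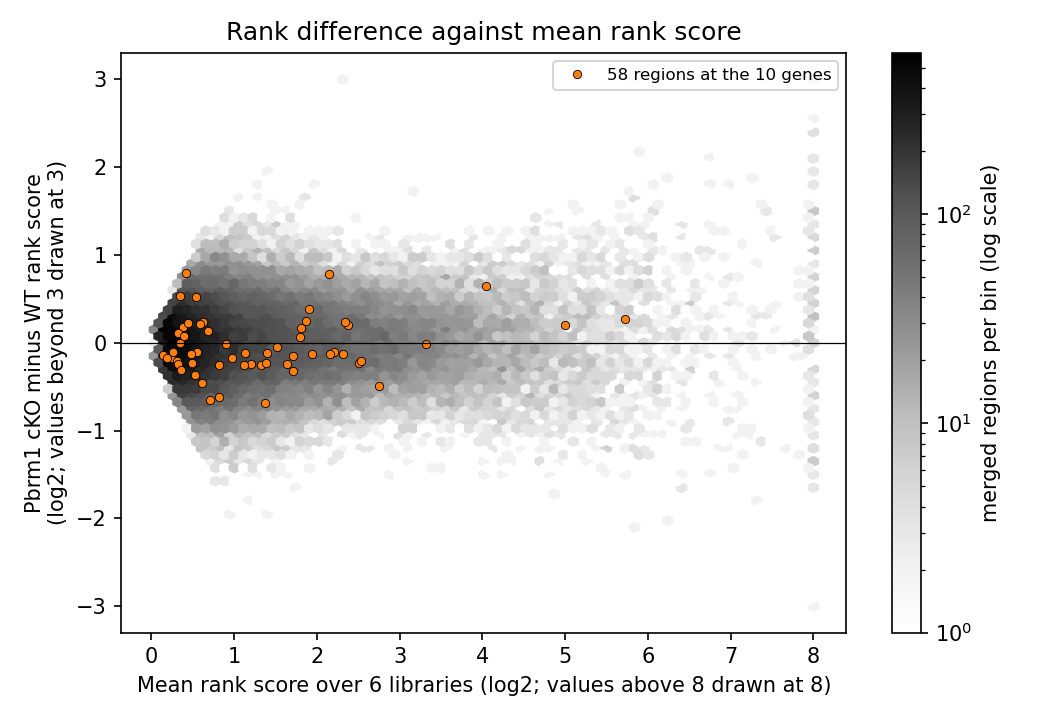
Difference in rank score between Pbrm1 cKO and WT (log2, positive is better ranked in Pbrm1 cKO) against the mean rank score over 6 libraries. Gray bins count all 66678 regions on a log scale and orange points are the 58 regions of the contractile apparatus genes. These lie inside the cloud of all regions, with 38 of 58 below 0.

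The 5 regions with the smallest unadjusted p lay in Mylk, Acta2 and Lmod1. The first was a region of 177 bases in a Mylk intron (chr16:34926659-34926835), in the reproducible list of Pbrm1 cKO only. It had no listed peak in WT libraries 1 and 3, a rank of 65344 in WT library 2, and ranks of 29047, 38189 and 48524 in the Pbrm1 cKO libraries. The difference was 0.80 (SE 0.19). The region entered the comparison through the Pbrm1 cKO list alone, so its direction was favoured by that choice and its p-value is not given as support.

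A pair of weak Acta2 regions had likewise entered through the Pbrm1 cKO list alone, and their values are a description. One lay past the end of Acta2 inside the neighbour Stambpl1 and ranked at 64202, 65763 and 59077 in WT and at 43682, 36028 and 52368 in Pbrm1 cKO libraries. The other was intronic, with ranks of 50069, 60795 and 54498 in WT and 46891, 39280 and 30286 in Pbrm1 cKO libraries. All Pbrm1 cKO libraries ranked above all WT libraries at both, and the differences were 0.53 (SE 0.16) and 0.52 (SE 0.22).

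The other pair was lower in Pbrm1 cKO. The Lmod1 intron region 16844 bases from the start ranked at 37970, 30745 and 24116 in WT and at 43178, 53996 and 43908 in Pbrm1 cKO libraries, without overlap. Its difference was -0.62 (SE 0.28, adjusted p = 0.285, limma). The flank region past the end of Mylk ranked at 38144, 19527 and 46452 in WT and at 42458, 53039 and 59794 in Pbrm1 cKO libraries. These groups overlapped, and the difference of -0.65 (SE 0.30) had an adjusted p of 0.302 by limma. Without WT library 2 the difference was -0.28.

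The reproducible lists of the genotypes shared 43 of the 58 regions. Of the others, 6 were in the WT list only (13.4% of all regions) and 9 in the Pbrm1 cKO list only (17.4% of all regions). One-genotype regions thus made up 25.9% of the members and 30.8% of all regions. Among the promoter regions of the genes themselves, 1 was in a single list, the second Lmod1 promoter region in the WT list, which had no listed peak in WT library 3. The lead promoters of all 8 genes were in both lists. Each genotype has 1 such list, so this comparison has no replicates.

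In the unfiltered lists of single libraries, the windows of the 10 genes held 188, 208 and 175 distinct peaks in WT and 167, 180 and 195 in Pbrm1 cKO libraries. The covered length was 45974, 46573 and 36163 bases in WT and 45709, 44009 and 45648 bases in Pbrm1 cKO libraries. The genotypes overlapped in both measures, and WT library 3 had the shortest covered length. The whole lists held 202310, 209436 and 241237 distinct peaks in WT and 201228, 204316 and 205436 in Pbrm1 cKO libraries. WT library 3 thus had the most in total, and the counts at the genes were not scaled to these totals.

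Related genes were set beside the members. Of 20 other contractile genes of smooth muscle, 20 had a promoter region, from Vcl (vinculin, mean rank 765) to Synpo2 (synaptopodin 2, 33908), with a median of 8660. The list was not limited to genes specific to smooth muscle, and its median was near the 8014 of all lead promoters. Its 20 of 20 is therefore not a trait of smooth muscle genes. None passed the test by limma, 3 had an unadjusted p under 0.05 (9.0% of all lead promoters), and 11 were lower and 9 higher in Pbrm1 cKO (52.3% of all lead promoters were lower). Those 3, named after their values were seen, were Synpo2 (-1.03, SE 0.36, adjusted p = 0.174), Pdlim3 (-0.85, SE 0.32, adjusted p = 0.208) and Ppp1r12a (1.44, SE 0.67, adjusted p = 0.307). Paralogs of wide or nonmuscle use also had a promoter region in 8 of 8 cases, with a median rank of 8236, from Myh10 (nonmuscle myosin heavy chain, 1069) to Cnn2 (48904). In contrast, of 13 paralogs typical of striated muscle, 1 had a promoter region, Mylk3 at a mean rank of 44786.

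The marker lists bear on the labelled cell type. Of 8 oviduct epithelium markers, 1 (Foxj1, mean rank 4389) had a promoter region, and Epcam, Cdh1, Krt8, Krt18, Krt7, Pax8 and Ovgp1 had none. Promoter regions were present for 4 of 5 fibroblast markers (median rank 30716), 4 of 5 endothelial markers, 2 of 6 immune markers and 1 of 3 mesothelium markers (Wt1). Myocd, which encodes myocardin, had no promoter region. The summed lead promoter scores of the fibroblast list were 4.03 to 4.96 in WT and 4.31 to 5.51 in Pbrm1 cKO libraries, and those of the endothelial list were 3.85 to 5.81 and 3.40 to 5.30. The summed scores of the 8 members were 12.3 to 14.5 in WT and 11.7 to 13.6 in Pbrm1 cKO libraries. The genotypes overlapped in all 3 sums. By gene, 4 of 4 fibroblast lead promoters had a higher mean score in Pbrm1 cKO (median difference 0.14), as did Foxj1 and Wt1. A lower one was found at 6 of 8 members (median -0.09), 3 of 4 endothelial and 2 of 2 immune lead promoters. Among the paralogs of wide or nonmuscle use it was also 6 of 8 (median -0.17), and over all lead promoters 52.3% were lower. None in the named lists passed the test. The part of other cells in the member ranks was not tested.

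**Figure D4:**
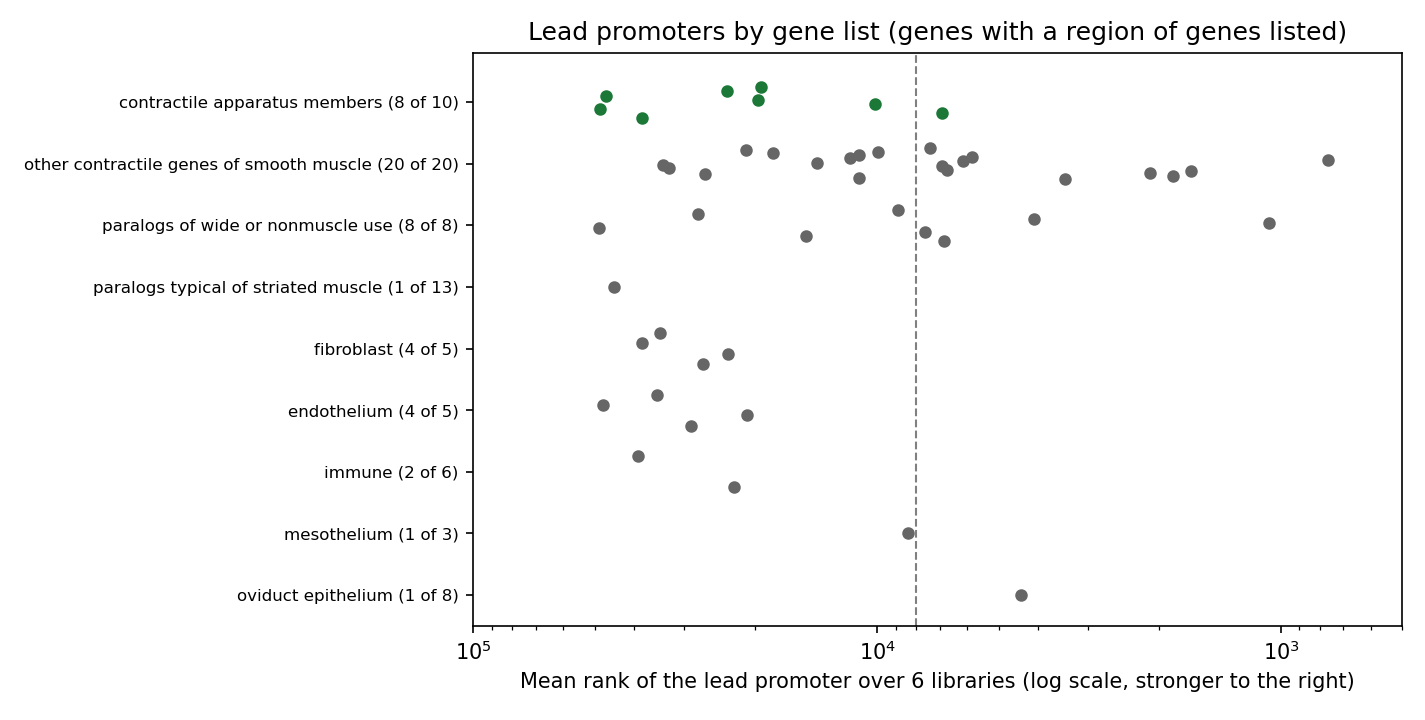
Mean rank of the lead promoter over 6 libraries (log axis, stronger to the right) for the genes of each list, 1 point per gene, with the number of listed genes that had a promoter region. The dashed line is the median of all protein-coding genes (8014). Of the 8 members (green), only Cald1 lies to its right, whereas striated paralogs had 1 point of 13 genes.

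The genes whose lead promoter was most like that of Cald1 over the 6 libraries were Ccdc116, Rnd1 and Magoh, with mean absolute differences in rank score of 0.0951, 0.0999 and 0.129.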

How the data were processed

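The 6 ATAC-seq libraries of oviductal muscle cells, 3 WT and 3 Pbrm1 cKO by their labels, were analysed from peak lists. Per the submitters' processing notes and the study's methods, the authors trimmed reads with cutadapt, aligned them with Bowtie2 to GRCm38.p5 and called peaks with MACS2 in the ENCODE pipeline. The authors deposited a relaxed list per library (p of 0.01, at most 300000 entries) and a conservative list per genotype (IDR of 0.05). Deposited values were a score, the fold enrichment over background (a ratio), and the −log10 p and −log10 q-value of the authors' peak caller. The summit position was also deposited by the authors.

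The conservative lists were merged by overlap of at least 1 bp. Regions were ranked by −log10 p, and the rank score was fitted with limma 3.58.1 in R 4.3.3 (trend, Benjamini-Hochberg over all regions, threshold 0.05). The fit was checked on simulated data in which only better-ranked regions were changed. That check does not cover weaker regions, among them most lead promoters of the members. The study compared read counts, and the lists hold none. Sequences were read from GRCm38. Tag numbers follow from fold and p. All 10 genes were named, with their lead promoter, best other region and the 5 smallest p-values. Members and lists were chosen with earlier results of these data known. Same-numbered replicates were not paired. Alternatives are given in the closing section.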

Additional observations from a re-analysis of the deposited data

How the results depend on the processing

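The count of 0 called member regions held under ranking by fold, a 50% overlap, entries in all 6 libraries, gene windows without flanks or with 50 kb, and each library left out (0 to 0), and became 1 with normal scores, the Mylk intron region, whose normal-score difference was 1.99 (adjusted p from 0.00693 to 0.217 over its alternatives). That region entered through the Pbrm1 cKO list alone, so the direction of this call was favoured by the choice of regions. Over all regions, calls were 26 higher and 19 lower with log2 ranks, 662 and 890 with normal scores, 4 and 0 ranked by fold, 28 and 20 at 50% overlap, and 14 and 6 with entries in all 6 libraries. Without single libraries they were 2 to 5 higher and 0 to 15 lower. The cause of these moves was not tested. With the replicate number as a block the count was again 0 (smallest adjusted p = 0.0678), with 66 higher and 65 lower over all regions. Deviations of same-numbered libraries correlated at -0.00289, -0.0549 and 0.00907, so the numbers were not taken as pairs.

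Regions in 1 genotype list only numbered 15 in the main comparison, 6 of 38 in the better-ranked 50% of each list, 9 of 40 without flanks and 32 of 121 with 50 kb, where fewer or more regions were counted by construction. The median promoter difference of -0.13 ranged from -0.19 to -0.04 without single libraries. Lead promoter differences turned in direction at Cald1 with normal scores (0.0017) and, ranked by fold, at Cald1 (0.029), Tagln (-0.028), Myh11 (0.11) and Lmod1 (0.011). Without single libraries, the range was -0.28 to 0.34 at Cald1 (0.34 without WT library 1, 0.13 without Pbrm1 cKO library 2), -0.015 to 0.30 at Acta2 (-0.015 without Pbrm1 cKO library 1), -0.14 to 0.26 at Tagln (-0.09 without WT library 3, -0.14 without Pbrm1 cKO library 1) and -0.19 to 0.088 at Myh11 (0.088 without WT library 2, 0.03 without Pbrm1 cKO library 3). At Lmod1 the range was -0.31 to -0.015 (without Pbrm1 cKO library 3 and WT library 2), and at the flank past Mylk -0.91 to -0.28 (without WT libraries 3 and 2). With a promoter limit of 3 kb there were 19 promoter regions, adding those of Mylk, Smtn and Cnn1 named above among others, with a median of -0.13. None of these lead promoter differences passed the test. Tags over the summit were fewest at Lmod1 (8 to 21) and Cnn1 (15 to 25), and the effect of depth was not tested.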
